A study of Homo sapiens with 16 samples.

Results

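The proteasome genes described here were the 48 protein-coding genes whose symbols in GENCODE release 44 run from PSMA1 to PSMG4 (the PSMA, PSMB, PSMC and PSMD genes of any number and the PSME, PSMF and PSMG genes), taken from 60107 genes listed for each library. They were chosen by symbol, with earlier results of these data known. They were sorted by role into the alpha ring (8 genes), the beta ring (11), the base (9) and the lid (8) of the regulatory particle, assembly chaperones (7), and activators and inhibitor (5). Counts came from cytoplasmic poly(A) RNA of U2OS-TR cells (human osteosarcoma cells with a stably expressed tetracycline repressor), sequenced as tags from mRNA 3′ ends (QuantSeq REV). The transgene line, U2OS-TR/ΔN-RNMT, is 1 clone picked for high expression of a cytoplasmic, catalytically inactive form of the cap methyltransferase RNMT under a tetracycline-operated CMV promoter. Control cells of this clone were not induced (n = 5), and Induced cells were given doxycycline 48 h after splitting and lysed 24 h later (n = 5). Parental U2OS-TR cells, which have the repressor without the transgene, made up the No Dox (n = 3) and With Dox (n = 3) groups. The study's methods add 1 μg/ml doxycycline to treated cells only, while the protocol label of all 16 libraries names it, and the group labels were followed here.

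The 26S proteasome degrades proteins tagged with ubiquitin. Its core particle is a barrel of outer alpha rings and inner beta rings, and 3 beta subunits, PSMB5, PSMB6 and PSMB7, carry its standard proteolytic sites. The regulatory particle sits on the end of the barrel: its base holds the ATPases PSMC1 to PSMC6, which unfold the substrate, and its lid holds PSMD14, which removes ubiquitin. Dedicated chaperones assemble both parts, and cells under proteasome stress are known to raise the subunit genes together through the transcription factor NFE2L1.

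Depth was 18991617 to 23251834 gene counts in Control, 12527183 to 20781875 in Induced and only 1473286 to 3214808 in the parental libraries, which were read on another instrument at another facility. RNMT, which the transgene raises, stood at 74.3 ± 22.4 TMM-scaled counts relative to library size (CPM; mean ± SD) in Control and 346 ± 78 in Induced with no overlap (highest Control library 113, lowest Induced library 266), so no library went against its label there. Of the 9 markers of the line's osteoblast origin, RUNX2, COL1A1 and SPARC were present, whereas SP7 and BGLAP were at 0 in every library. COL1A2 and IBSP were at 0 in Control, and ALPL and SPP1 had Control means of only 0.372 and 0.553 CPM. The 4 blood markers summed to at most 1.61 CPM per transgene-line library and the 2 endothelial markers to at most 0.178 CPM. The 3 mesenchymal markers summed to 458 to 622 CPM in Control and 528 to 897 in Induced, and the 3 epithelial markers, with KRT5 at 0, to 5.13 to 12.8 and 7.43 to 16.6 CPM. The part of these in the results was not tested. Control replicate 5 and Induced replicate 2 stood apart from their groups at many proteasome genes and often lay between the groups. For that reason the counts, the medians and the members that moved most are also given without them.

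In the transgene line the proteasome genes moved in both directions. Of 45 tested, 13 were lower and 13 higher in Induced cells (26 called, 57.8%), beside 39.8% of all 13038 genes called, 19.8% lower and 20% higher (edgeR's quasi-likelihood test, Benjamini-Hochberg adjustment over all tested genes, called at an adjusted P below 0.05). Their median log2 fold change was -0.28, beside 0.04 over all tested genes, and their interquartile range was 1.26, beside 1.07. At an unadjusted P below 0.05 there were 31, beside 53.3% of all tested genes. Without Control replicate 5 and Induced replicate 2 the called members numbered 37 (21 lower, 16 higher) and held all 26 in the same direction, while 64.3% of all tested genes were then called. Each of the 26 was then larger in size, the falls lying between -1.47 (PSMC3) and -0.47 (PSMB6) and the rises between 0.65 (PSMB2) and 2.82 (PSMD11). These 2 libraries were left out because they often lay between the groups. Larger differences and more calls follow from that choice and lend the calls no support. Scaling by total counts alone moved the median of all genes to 0.28 and the members' split to 6 lower and 14 higher. Of all 13038 genes, 1401 were then lower and 4022 higher (41.6% called). No called member changed sign. The members took 1.01% ± 0.0471 (SD, n = 5) of gene counts in Control and 0.919% ± 0.0336 in Induced. In bulk RNA a smaller number of responding cells and a smaller change per cell cannot be told apart.

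**Figure D1:**
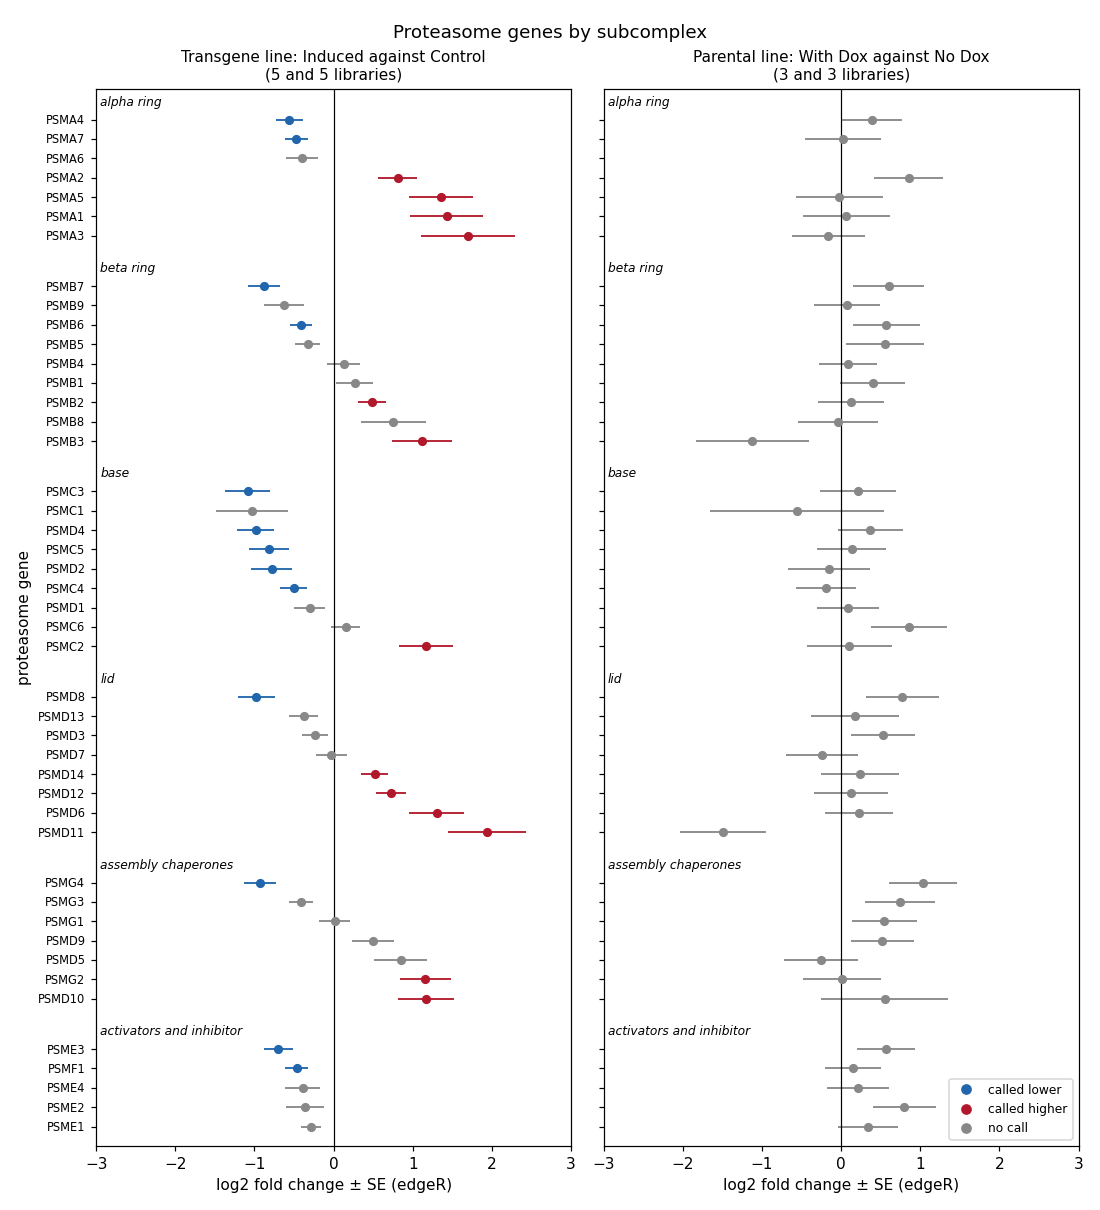
Log2 fold change with its standard error for each tested proteasome gene (rows, by subcomplex), Induced against Control in the left panel and With Dox against No Dox in the right panel. In the left panel 13 genes are called lower (blue) and 13 higher (red), with both directions in every subcomplex but the activators and inhibitor, and in the right panel none is called.

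Calls were sensitive to which libraries were used. With each of the 10 libraries left out in turn, between 6 and 34 members were called. The share of all tested genes called moved too, from 14.3% without Induced replicate 1 to 58.5% without Control replicate 5. The count of members was 9, 7, 19, 12 and 34 without Control replicates 1 to 5 and 6, 30, 9, 7 and 14 without Induced replicates 1 to 5. Only 5 of the 26 were called in all 10 of these fits: PSMB7, PSMD4, PSMD8 and PSMG4, all lower, and PSMD11, higher. Every called member kept its direction in all 10 fits.

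**Figure D2:**
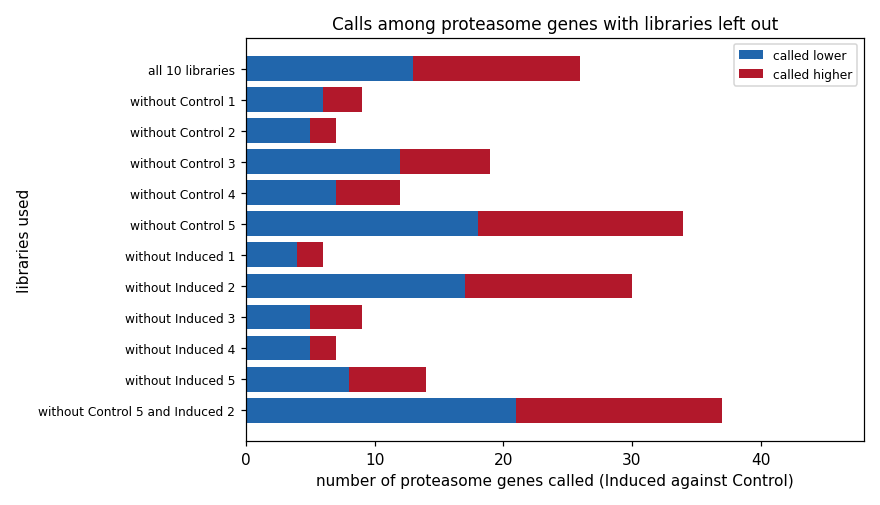
Number of proteasome genes called lower (blue) and higher (red) between Induced and Control with all libraries and with libraries left out. The count ranges from 6 without Induced replicate 1 to 34 without Control replicate 5, and is 37 without Control replicate 5 and Induced replicate 2 together.

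PSMB7 encodes the core subunit with trypsin-like activity. It lies on chromosome 9 (124353465 to 124415444, minus strand, GRCh38, 8 exons). Its level in Control replicates 1 to 5 was 1375, 1443, 1402, 1278 and 974 CPM, and in Induced replicates 1 to 5 it was 707, 962, 747, 641 and 461 CPM. All Induced libraries lay below all Control libraries, although Control replicate 5 and Induced replicate 2 nearly met. The difference was 1.84-fold lower (log2 fold change -0.88, SE 0.20, edgeR adjusted P = 0.0176). PSMB6, which carries the caspase-like site, fell by 0.41 on the log2 scale (SE 0.14, edgeR adjusted P = 0.0371), from 73.8 to 100 CPM in Control to 54.1 to 69.0 CPM in Induced with no overlap. PSMB5, which carries the chymotrypsin-like site, was at 261 ± 21.0 CPM in Control and 208 ± 41.5 in Induced, and did not pass the test (log2 fold change -0.33, SE 0.16, edgeR adjusted P = 0.112).

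The other standard beta subunits included both rises of that ring. PSMB3 was at 10.5, 7.89, 2.44, 10.3 and 14.9 CPM in Control and at 17.5, 13.5, 24.9, 15.6 and 28.4 CPM in Induced. Only Control replicate 5 reached into the Induced range. PSMB3 rose 2.17-fold (log2 fold change 1.11, SE 0.38, edgeR adjusted P = 0.0385) and PSMB2 rose 1.40-fold (0.48, SE 0.17, edgeR adjusted P = 0.0464). PSMB1 and PSMB4 did not pass, at log2 fold changes of 0.27 (SE 0.23) and 0.13 (SE 0.21).

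The alpha ring, whose subunits gate entry to the barrel, held 4 of the rises. PSMA3, on chromosome 14 (58244843 to 58272012, plus strand, 11 exons), was at 44.8, 38.1, 27.9, 52.8 and 217 CPM in Control and at 364, 72.0, 358, 250 and 191 CPM in Induced. Control replicate 5 was above Induced replicates 2 and 5, and Induced replicate 2 was closer to the other Controls than to its own group. The fit gave a log2 fold change of 1.70 (SE 0.59, edgeR adjusted P = 0.0404) with all libraries and 2.82 without these 2. PSMA3 overlaps PSMA3-AS1 and ARMH4 on the opposite strand, and the sources used here do not say whether counting used strand, so their tags cannot be told apart. The same holds for PSMG4 (TUBB2B and SLC22A23), PSMD6 (PSMD6-AS1 and PSMD6-AS2), PSMG2 (SPIRE1 and CEP76), PSMC2 (DNAJC2 and SLC26A5), PSMC5 (FTSJ3), PSME3 (BECN1) and PSMF1 (TMEM74B). It also holds for PSMD11 (an unnamed gene and a Y_RNA), PSMA2 (an unnamed gene), PSMB3 (RNU6-866P) and PSMD14 (MXRA7P1).

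PSMA1 ran the same way, at 52.6, 40.3, 22.3, 58.1 and 153 CPM in Control and 226, 79.6, 215, 193 and 166 CPM in Induced (log2 fold change 1.43, SE 0.46, edgeR adjusted P = 0.0310). Without the 2 libraries it was 2.19. PSMA5 was at 17.2 to 55.0 CPM in Control and 21.9 to 92.6 in Induced (1.36, SE 0.41, edgeR adjusted P = 0.0251; 1.99 without them), and PSMA2 at 22.0 to 52.0 and 34.2 to 70.9 (0.81, SE 0.25, edgeR adjusted P = 0.0279). All 4 ranges overlapped through Control replicate 5 and Induced replicate 2. In the opposite direction, PSMA7 was at 1796, 1977, 2377, 1731 and 1704 CPM in Control and at 1442, 1419, 1536, 1321 and 1202 CPM in Induced, without overlap. It fell by 0.47 on the log2 scale (SE 0.15, edgeR adjusted P = 0.0303). PSMA4 fell by 0.56 (SE 0.17, edgeR adjusted P = 0.0277). PSMA6, with 43 to 115 tags per library and 4 named pseudogenes that can draw off its tags, was at 4.83 ± 1.23 CPM in Control and 3.65 ± 0.367 in Induced (log2 fold change -0.40, SE 0.21, edgeR adjusted P = 0.128). Called members have named pseudogenes too: PSMA2 and PSMD10 have 3 each, and PSMB3 and PSMC2 have 2 each. PSMA1, PSMA3, PSMA5, PSMD12 and PSMD14 among the rises and PSMB7, PSMD4 and PSMD8 among the falls have 1 each. The part of pseudogenes in these values was not tested.

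The base held 5 of the 13 falls and 1 rise. Its largest fall was in PSMC3, an ATPase, which was at 558, 648, 835, 486 and 335 CPM in Control and at 233, 433, 248, 271 and 164 CPM in Induced. Control replicate 5 lay below Induced replicate 2, and the other 4 Controls were above all Induced libraries. PSMC3 was 2.12-fold lower (log2 fold change -1.08, SE 0.29, edgeR adjusted P = 0.0187).

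PSMD4, the base subunit that binds ubiquitin chains, lies on chromosome 1 (151254709 to 151267479, plus strand, 10 exons). It was at 782, 877, 1017, 720 and 479 CPM in Control and at 382, 547, 389, 374 and 265 CPM in Induced, again crossing only at Control replicate 5 and Induced replicate 2. The level was 1.98-fold lower (log2 fold change -0.99, SE 0.23, edgeR adjusted P = 0.0176). The ATPase PSMC5 (-0.82, SE 0.25, edgeR adjusted P = 0.0283), the scaffold subunit PSMD2 (-0.78, SE 0.26, edgeR adjusted P = 0.0352) and the ATPase PSMC4 (-0.50, SE 0.17, edgeR adjusted P = 0.0374) were lower too. One base gene was higher: PSMC2, an ATPase, was at 13.4 to 57.0 CPM in Control and 45.1 to 79.2 CPM in Induced (log2 fold change 1.17, SE 0.34, edgeR adjusted P = 0.0237). PSMC1, which has 13 named pseudogenes, varied from 20.7 to 106 CPM in Control and from 10.0 to 42.1 in Induced, and its log2 fold change of -1.03 (SE 0.45) did not pass (edgeR adjusted P = 0.0815). PSMC6 was at 108 ± 24.4 and 120 ± 14.6 CPM (0.15, SE 0.18, edgeR adjusted P = 0.515).

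The lid showed the reverse balance, with 4 rises and 1 fall. PSMD11, a scaffold subunit of the lid on chromosome 17 (32444379 to 32483319, plus strand, 14 exons), had the largest log2 fold change of the members. It was at 33.4, 37.2, 36.7, 39.8 and 144 CPM in Control and at 224, 74.0, 198, 284 and 335 CPM in Induced. Apart from replicate 5 the Controls agreed closely, and Induced replicate 2 was the only Induced library below that replicate. PSMD11 was 3.83-fold higher (log2 fold change 1.94, SE 0.49, edgeR adjusted P = 0.0177), and 2.82 on the log2 scale without the 2 libraries.

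PSMD6, another lid scaffold subunit, was at 9.90, 11.2, 10.1, 10.9 and 22.9 CPM in Control and at 44.8, 12.2, 42.6, 32.8 and 28.3 CPM in Induced. It rose 2.47-fold (log2 fold change 1.30, SE 0.35, edgeR adjusted P = 0.0192). PSMD12 rose 1.65-fold (0.72, SE 0.19, edgeR adjusted P = 0.0187) and PSMD14, the deubiquitinase, 1.44-fold (0.52, SE 0.17, edgeR adjusted P = 0.0331). Neither was called with offsets for GC content, at 0.23 and 0.21. The single fall was in PSMD8, on chromosome 19 (38374563 to 38383850, plus strand, 7 exons), a small lid subunit. PSMD8 was at 1155, 1234, 1888, 1065 and 747 CPM in Control and at 617, 758, 689, 559 and 478 CPM in Induced. The only crossing was Control replicate 5, just below Induced replicate 2. PSMD8 was 1.96-fold lower (log2 fold change -0.97, SE 0.24, edgeR adjusted P = 0.0176). Between them, PSMD13 (-0.38, SE 0.18, edgeR adjusted P = 0.112) and PSMD7 (-0.03, SE 0.19, edgeR adjusted P = 0.911) did not pass.

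**Figure D3:**
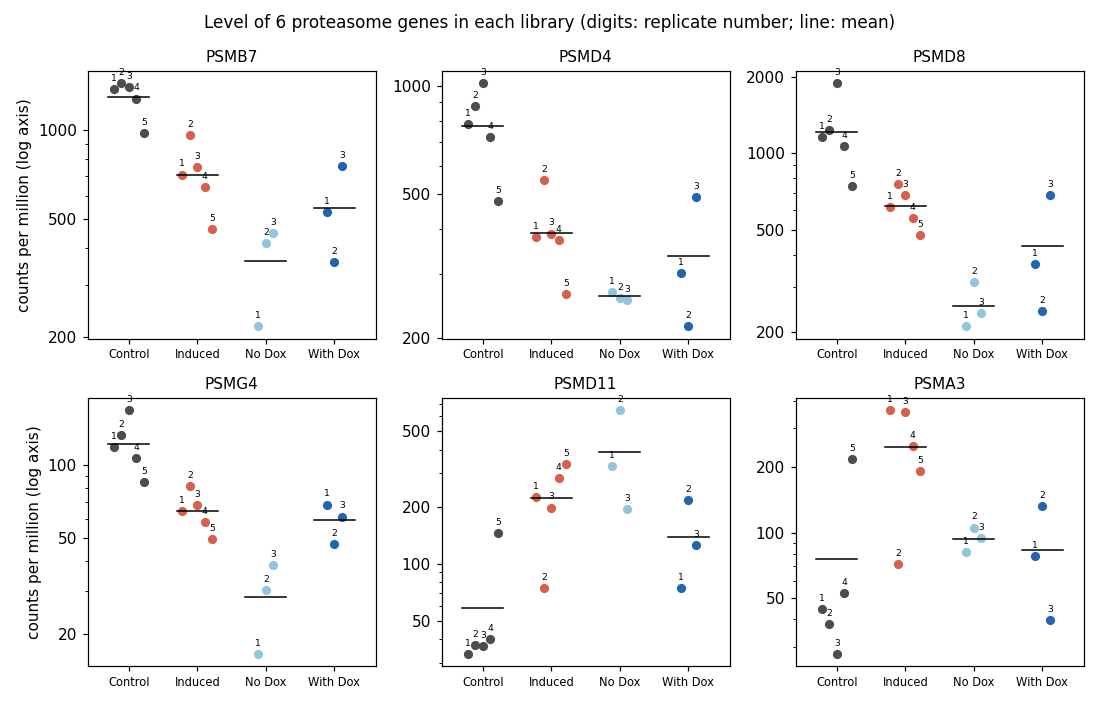
Level of 6 proteasome genes in each library (log axis, CPM; digits give the replicate and lines the group mean). PSMB7 and PSMG4 do not overlap between Control and Induced, and at PSMD4, PSMD8, PSMD11 and PSMA3 the groups cross at Control replicate 5 and Induced replicate 2. At PSMA3 Control replicate 5 also lies above Induced replicate 5.

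Among the assembly chaperones, PSMG4, which with PSMG3 helps build the alpha ring, was at 119, 133, 168, 107 and 84.7 CPM in Control and at 64.5, 81.6, 68.5, 58.2 and 49.2 CPM in Induced, without overlap. It was 1.90-fold lower (log2 fold change -0.92, SE 0.20, edgeR adjusted P = 0.0176) and had the lowest unadjusted P of the members, 0.000663. Its partner PSMG3 was at 439 ± 53.1 and 330 ± 55.5 CPM and did not pass (-0.41, SE 0.16, edgeR adjusted P = 0.0544). PSMG2, of the other alpha ring chaperone pair, rose 2.23-fold (1.16, SE 0.33, edgeR adjusted P = 0.0214) from 34.8 ± 16.8 to 77.8 ± 23.4 CPM, whereas its partner PSMG1 was at 29.9 ± 2.23 and 30.3 ± 8.40 CPM. PSMD10, a base chaperone also known as gankyrin, rose 2.25-fold (1.17, SE 0.35, edgeR adjusted P = 0.0262), and PSMD5, another base chaperone, did not pass (0.85, SE 0.34, edgeR adjusted P = 0.0607).

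All 5 genes of activators and inhibitor had negative log2 fold changes, and 2 passed. PSME3, the nuclear PA28γ activator, was at 121, 135, 128, 117 and 82.4 CPM in Control and at 64.5, 98.5, 65.1, 57.7 and 73.5 CPM in Induced, crossing at Control replicate 5 and Induced replicate 2. It was 1.62-fold lower (log2 fold change -0.70, SE 0.19, edgeR adjusted P = 0.0193). PSMF1, the inhibitor PI31, was 1.38-fold lower (-0.46, SE 0.15, edgeR adjusted P = 0.0291). PSME1, a subunit of the interferon-induced PA28αβ activator, did not overlap between the groups (48.2 to 60.2 CPM and 39.5 to 47.1 CPM) but did not pass the test (-0.28, SE 0.13, edgeR adjusted P = 0.0886), and neither did PSME4 (-0.39, SE 0.22, edgeR adjusted P = 0.164). Across all subcomplexes, members whose libraries did not overlap between Control and Induced were PSMA7, PSMB6, PSMB7, PSMG4 and PSME1, all lower. Of all tested genes, 7.3% did not overlap, 4.22% lower and 3.08% higher, and 6.51% were also called, as were 4 of these 5 members.

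Tissue-restricted and interferon-inducible forms were examined separately. PSMA8, the testis form, had no tag in any of the 16 libraries. PSMB11, the thymus form, had 2 tags in 1 Control library, and PSMB10, an immunoproteasome subunit, had 1 tag in each of 2 transgene-line libraries. These 3 were not tested. The immunoproteasome subunit PSMB8 ranged from 11.1 to 90.7 CPM in Control and 54.9 to 88.7 in Induced (log2 fold change 0.76, SE 0.42, edgeR adjusted P = 0.153). PSMB9 was at 8.86 ± 1.96 and 5.71 ± 2.00 CPM (-0.63, SE 0.25, edgeR adjusted P = 0.0647). Genes of interferon response and antigen presentation outside the proteasome included 5 lower and 0 higher of 15 tested (33.3% called), beside 39.8% of all tested genes called and 19.8% lower. Among the lower were TAPBP, tapasin, which helps load class I molecules (-1.12, SE 0.27), and IFITM3, an interferon-induced membrane protein (-1.08, SE 0.24).

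The core and regulatory particles were compared next. In the core, 4 of 16 tested genes were lower and 6 higher, with a median log2 fold change of 0.20. Of the 17 regulatory particle genes, 6 were lower and 5 higher, with a median of -0.30. Without Control replicate 5 and Induced replicate 2 the medians were 0.28 and -0.51. Per library, the mean log2 CPM of core genes minus that of regulatory genes was -0.60, -0.78, -1.27, -0.62 and -0.20 in Control and -0.27, -0.59, -0.19, -0.46 and 0.03 in Induced. Control replicate 5 lay inside the Induced range and Induced replicate 2 close to the Controls. The group means differed by 0.40, beside a pooled SD of 0.32. Induced minus Control was 0.33 for the core mean (pooled SD 0.25) and -0.06 for the regulatory mean (pooled SD 0.11). As shares of tags, core genes took 0.447% ± 0.0196 of counts in Control and 0.446% ± 0.0211 in Induced, while regulatory genes took 0.441% ± 0.0739 and 0.347% ± 0.0318. Shares weigh the most abundant genes most, so they need not move with the means of log2 CPM. The regulatory share of Control replicate 5, 0.335%, lay within the Induced range of 0.314% to 0.392%. Within the regulatory particle the median was -0.78 for the base and 0.25 for the lid.

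**Figure D4:**
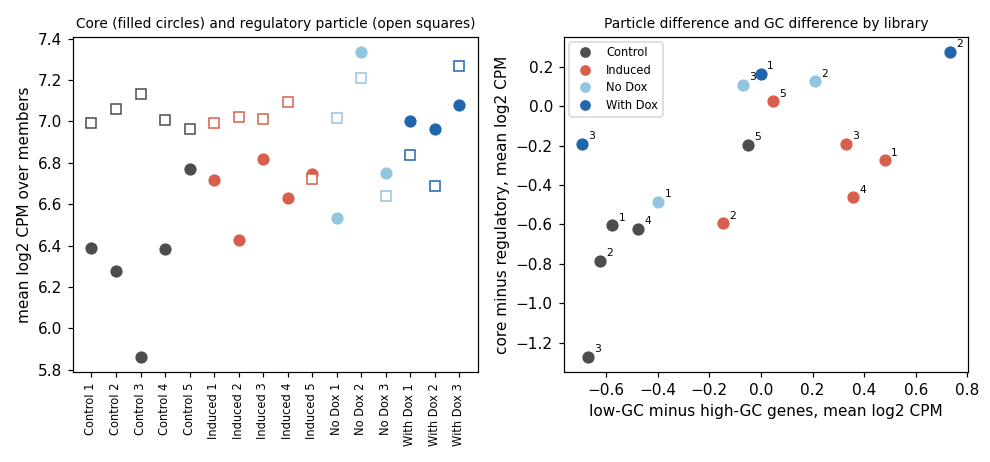
Left panel: mean log2 CPM over core particle genes (filled circles) and regulatory particle genes (open squares) in each of the 16 libraries. Right panel: their difference against the difference between low-GC and high-GC genes in the same library, where Control replicate 5 lies among the Induced libraries.

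The GC content of the members moved with these results. Transcripts of the 13 lower members had a median GC content of 52.9% (41.9% to 57.4%), and those of the 13 higher members had 41.3% (37.5% to 53.4%). Over all tested genes the medians were 57.0% for lower and 42.5% for higher genes. Log2 fold change correlated with GC content at r = -0.583 over the 45 members and r = -0.371 over 12922 genes, as a description, since all points share the same 10 libraries. Libraries differed in the same measure: the mean log2 CPM of genes under 45% GC minus that of genes over 55% was -0.57, -0.62, -0.67, -0.48 and -0.05 in Control and 0.48, -0.15, 0.33, 0.36 and 0.05 in Induced.

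With offsets for GC content in the fit, 14 members were called, 10 lower and 4 higher, beside 26.6% of all tested genes. The 4 that stayed higher were PSMB3 (log2 fold change 1.25), PSMD6 (1.09), PSMD11 (1.80) and PSMG2 (0.83), and the other 9 rises shrank and were no longer called. PSMD12 went from 0.72 to 0.23, PSMD14 from 0.52 to 0.21, PSMA2 from 0.81 to 0.40 and PSMB2 from 0.48 to 0.23, at edgeR adjusted P of 0.208, 0.229, 0.119 and 0.276. PSMA1 (1.12), PSMA3 (1.36), PSMA5 (0.90), PSMC2 (0.76) and PSMD10 (0.77) had edgeR adjusted P between 0.0535 and 0.0654. Falls no longer called were PSMB6 (-0.20, edgeR adjusted P = 0.203), PSMA7 (-0.39), PSMC4 (-0.39) and PSMD2 (-0.66). Falls that stayed called included PSMB7 (-0.90), PSMC3 (-0.83), PSMD4 (-0.86), PSMD8 (-0.66) and PSMG4 (-0.79). With 1 surrogate variable in the fit no member was called, and 1 gene was called of 13038 (3431 genes and 12 members at an unadjusted P below 0.05).

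**Figure D5:**
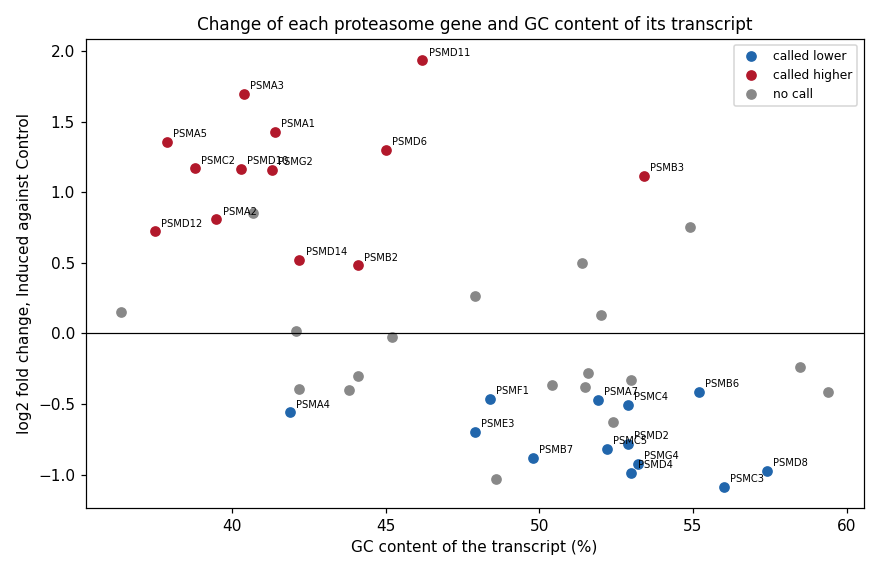
Log2 fold change between Induced and Control against GC content of the transcript for the 45 tested proteasome genes (blue called lower, red called higher, grey no call). Most of the higher genes lie at lower GC content than most of the lower genes, with PSMA4 and PSMB3 as exceptions.

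Starts of the annotated transcripts were examined because terminal oligopyrimidine (TOP) mRNAs, which encode ribosomal proteins, begin with a C followed by a run of pyrimidines. RefSeq windows (GRCh38.p14) were found for 42 of the 48 genes, those of PSMA7, PSMB1, PSMB6, PSMB7, PSMD4 and PSMG3 not being among them. None of the 42 members began with a C and at least 4 more pyrimidines, beside 4.04% of 27305 windows. The first 20 bases are shown 5′ to 3′ for the members with the largest fall and rise in 4 subcomplexes (PSMB7 for the beta ring fall is without a window), with pyrimidines that open the transcript in capitals.
PSMA4, lower, chr15:78540405-78540424, plus strand: CCCgccccaacccagcggtt
PSMA3, higher, chr14:58244843-58244862, plus strand: actagtttgcggcatcctgt
PSMB3, higher, chr17:38752741-38752760, plus strand: agcagtgagagcggttgcgc
PSMC3, lower, chr11:47426420-47426439, minus strand: agattcgctgctccgcagca
PSMC2, higher, chr7:103347643-103347662, plus strand: aagacaccaccggaagcaag
PSMD8, lower, chr19:38374571-38374590, plus strand: gagtgacgacagaggcggag
PSMD11, higher, chr17:32444510-32444529, plus strand: gtgagagcggtaagatggcg
Of these 7 only PSMA4 opened with pyrimidines, 3 of them. At a share of 4.04% few such starts would fall among 42 windows, so their absence says little about the members. With a C allowed anywhere in the first 3 bases, 9.52% of members had such a start, beside 8.79% of windows. The called falls PSMA7, PSMB6, PSMB7 and PSMD4 were not covered.

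The same windows, 250 bases before to 50 after the start, were searched on both strands for TGACNNNGC and TGAGNNNGC, the core of the antioxidant response element that NFE2L1 and NFE2L2 are known to bind. This search was chosen after the values were seen. The letters occurred in 20 of 42 members (47.6%), beside 29.4% of all windows, and in 2 of 9 lower, 7 of 13 higher and 11 of 17 uncalled members. One called member from each of 4 subcomplexes is shown on the gene's strand, with the matching letters in capitals.
PSMA3, higher, chr14:58244819-58244847, plus strand: gttcagccaaTGAGCGGGCctgttactag
PSMB3, higher, chr17:38752627-38752655, plus strand: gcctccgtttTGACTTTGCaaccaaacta
PSMC4, lower, chr19:39971109-39971137, plus strand: cttcccagaaGCCTCCTCAgccagggact
PSMD8, lower, chr19:38374507-38374535, plus strand: ggggtggtgtTGAGACAGCtgtcattttc
In PSMC4 the match lies on the opposite strand. These are matches of letters, and no binding was measured.

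Other genes of the ubiquitin and proteasome pathway were described from a list of 38, of which 8 were lower and 6 higher (36.8% called, beside 39.8% of all tested genes), with a median log2 fold change of -0.08. Among the lower were ZFAND2A, an arsenite-inducible proteasome partner (-1.11, SE 0.28), and UFD1, a partner of the segregase VCP (-0.85, SE 0.22). The highest among those called were UBQLN2, a shuttle that carries ubiquitinated proteins to the proteasome (1.11, SE 0.33), NFE2L2 (0.92, SE 0.24) and UBA6, a ubiquitin-activating enzyme (0.68, SE 0.18). NFE2L1 was at 48.9 ± 10.5 CPM in Control and 39.6 ± 6.57 in Induced and did not pass (edgeR adjusted P = 0.183).

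In the parental line, none of the 44 tested members and 0% of 9124 genes were called by edgeR, and the DESeq2 Wald test called 1 gene, not a member. At an unadjusted P below 0.05 there were 2 members, beside 2.93% of genes. PSMD11 was one: it was at 328, 646 and 194 CPM in No Dox and at 74.3, 216 and 126 CPM in With Dox, overlapping at With Dox replicate 2 (log2 fold change -1.49, SE 0.54, edgeR unadjusted P = 0.0195, adjusted P = 0.997). PSMG4 was the other, at 16.6, 30.5 and 38.6 CPM in No Dox and at 68.6, 47.1 and 61.1 CPM in With Dox, without overlap (1.03, SE 0.43, edgeR unadjusted P = 0.0357, adjusted P = 0.997). MALAT1, an RNA retained in the nucleus, was at 311 to 1310 CPM in No Dox and 121 to 129 CPM in With Dox, and its part in these values was not tested.

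The next lowest log2 fold changes in that line were -1.12 (SE 0.71) at PSMB3 and -0.56 (SE 1.10) at PSMC1, and the next highest were 0.85 at PSMA2 (SE 0.44) and at PSMC6 (SE 0.48). PSMC1 rested on 7 to 103 tags per library. PSMD3, PSME2, PSME3 and PSMG4 did not overlap between the groups and were higher in With Dox, and no member was lower without overlap. Of all tested genes 9.52% did not overlap, 4.87% higher and 4.66% lower. The median over members was 0.19, beside -0.01 over all genes, with core and regulatory medians of 0.09 and 0.13. Standard errors of the members ran from 0.35 to 1.10 in this line, which had fewer libraries and lower depth than the transgene line.

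Whether the lines differed in their response was tested directly, as Induced minus Control less With Dox minus No Dox. It passed for 5 members, 4 lower and 1 higher, beside 2.98% of 12265 genes (2.2% lower and 0.775% higher). PSMD11 was higher by 3.23 on the log2 scale (SE 0.78, edgeR adjusted P = 0.0433), with a rise in the transgene line and a negative value in the parental line. The 4 lower were PSMG4 (-2.19, SE 0.42, edgeR adjusted P = 0.0372), PSMD8 (-2.0, SE 0.50, edgeR adjusted P = 0.0454), PSMB7 (-1.72, SE 0.46, edgeR adjusted P = 0.04997) and PSME3 (-1.50, SE 0.35, edgeR adjusted P = 0.0424), each below 0 in the transgene line and above 0 in the parental line. For this test the 16 libraries were scaled and fitted together, with each gene's spread estimated over both lines. These values therefore need not equal the differences between the separate fits, which at PSMB7 gave -0.88 and 0.60. All 5 adjusted P values lay near the limit, and with a library left out the count ran from 0 to 14. The share of all tested genes that passed then ran from 0% to 18.9% (without Control replicate 5). The count of members was 14 without Control replicate 5, 10 without Induced replicate 2 or With Dox replicate 2, 5 without No Dox replicate 3, 1 without No Dox replicate 2 and 0 without any other one. Levels before treatment were also unlike in the 2 lines, PSMB7 being at 1294 ± 189 CPM in Control and 359 ± 125 in No Dox and PSMD11 at 58.3 ± 48.1 and 390 ± 232. Those were not tested, because the lines were sequenced apart, on different instruments, and line and sequencing run cannot be told apart.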

How the data were processed

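The authors deposited raw, unnormalized counts of 3′ tags per Ensembl gene, made per library by Lexogen's QuantSeq REV pipeline on GRCh38. Which aligner, annotation release, strand setting and duplicate handling were used is not given in the sources used here. Tags that aligned to several places (0.561 to 1.45 per gene count) were not part of the gene counts, and the 5 summary entries and 92 spike-in entries (all 0) were left out. In the parental libraries 1.11 to 1.50 tags per gene count fell outside genes, against 0.0744 to 0.106 in the transgene line. IDs were named from GENCODE release 44 (56104 matched).

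Testing took genes whose base mean exceeded 20, in R 4.3.3 with edgeR 4.0.16 (TMM, quasi-likelihood, Benjamini-Hochberg), separately per line, and over 16 libraries for the line difference. The standard error is the log2 fold change over the square root of F. CPM values are TMM-scaled, and mean log2 CPM used a prior count of 2. Levels of single genes were not ranked against each other. Core and regulatory means and shares were set side by side only to compare groups of libraries. Alternatives were DESeq2 1.42.0, other scaling and filters, the replicate number as a block, GC offsets (lowess span 0.5), 1 surrogate variable (sva 3.50.0) and each library left out. The edgeR test with and without GC offsets and the DESeq2 test were run on simulated counts with a common dispersion and no filter. The other settings and steps were not simulated. Named genes were every called member, the lowest and highest uncalled member of each subcomplex, the 3 lowest and highest parental values and, of other lists, the 3 lowest and highest called, some of which are not reported here. The members and lists were chosen with earlier results of these data known. Per the study's text, replicates are biological replicates in the transgene line and separate cultures in the parental line.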

Additional observations from a re-analysis of the deposited data

Results flagged for a closer look

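Within groups of 5 libraries, 12 of 90 tests on members (45 genes in each of Control and Induced) found a library far from the others by Dixon's ratio of gap to range on log2 CPM, where chance gives about 1 in 20, or 4.5. The 90 tests share 10 libraries, so 4.5 is only a rough guide, and other genes were not put through this rule. Of the 12, Control replicate 5 was the outlying library in 5 and Induced replicate 2 in 6. Over all tested genes these 2 libraries also had the lowest mean correlation with their groups (0.911 and 0.935). In Control, replicate 5 was lowest at PSMA4 (206 CPM, ratio 0.755) and PSMF1 (51.5 CPM, 0.853) and highest at PSMD6 (22.9 CPM, 0.849), PSMD10 (21.7 CPM, 0.807) and PSMD11 (144 CPM, 0.881). In Induced, replicate 2 was lowest at PSMA2 (34.2 CPM, 0.787), PSMA5 (21.9 CPM, 0.847), PSMD9 (158 CPM, 0.723) and PSMG2 (39.4 CPM, 0.719) and highest at PSMB1 (719 CPM, 0.829) and PSMD13 (207 CPM, 0.766). The remaining one was Induced replicate 5, highest at PSMD5 (83.4 CPM, 0.784).

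The response differed between the transgene and parental lines at PSMB7 (-1.72 on the log2 scale), PSMD8 (-2.0), PSMD11 (3.23), PSME3 (-1.50) and PSMG4 (-2.19), by the interaction test.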

How the results depend on the processing

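Calls in the transgene line, 26 members (13 lower, 13 higher; core 10, regulatory 11), ranged from 6 to 34 with a library left out (lower 4 to 18, higher 2 to 16, core 1 to 13, regulatory 4 to 13). The share of all tested genes called ran from 14.3% to 58.5% in the same fits. GC offsets gave 14 (higher 4, core 3, regulatory 6), and with the replicate block the offsets gave higher 8 and core 6. No filter gave lower 8 and core 6, total counts alone gave lower 6 and a regulatory median of -0.0623, and 1 surrogate variable gave 0 in every count, with a core median of -0.0563 and a regulatory median of -0.0873. Of all tested genes, 26.6% were called with GC offsets, 31.3% with GC offsets and the block, and 17.3% with no filter. The share was 41.6% with total counts alone, 0.00767% with the surrogate variable and 64.3% without Control replicate 5 and Induced replicate 2. Leaving out Control replicate 5 and Induced replicate 2, chosen after seeing the data, gave lower 21 and a regulatory median of -0.51, which over single libraries left out ran from -0.42 to -0.27 and, for the core, from 0.03 to 0.32.

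Members that reversed had not been called: PSMB8 (-0.0577), PSMC1 (0.067) and PSMC6 (-0.0873) with the surrogate variable, PSMC6 with GC offsets (-0.37; -0.35 with the block), and PSMD7 with total counts (0.21), without both libraries (0.0128) and with single libraries left out (-0.10 to 0.11). In the parental line PSMC1 ran from -3.33 (without With Dox replicate 3) to 0.43 (without No Dox replicate 1) and the core median from 0.14 to 0.59 (without No Dox replicate 2), and no alternative called a member.

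The 5 line differences (4 lower, 1 higher) became 0 to 14 with a library left out (lower 0 to 12, higher 0 to 2), 13 by DESeq2 (lower 12), 3 with DESeq2 size factors (lower 2) and with GC offsets (lower 2), 2 with total counts, no filter, the replicate block or GC offsets with the block (lower 1 each), 0 with filterByExpr (lower 0, higher 0) or the surrogate variable (lower 0, higher 0), and 20 without both libraries (lower 14, higher 6). The share of all tested genes with a line difference, 2.98% in the main fit, ran from 0% to 18.9% with a library left out. It was 12.1% by DESeq2, 1.92% with DESeq2 size factors, 2.76% with GC offsets and 4.13% with total counts. With no filter it was 0.529%, with the block 1.81%, with GC offsets and the block 1.57%, and without both libraries 25.3%. With filterByExpr it was 0.0182% and with the surrogate variable 0.122%. A C within the first 3 bases gave TOP-like starts in 9.52% of members (8.79% of windows). The causes were not tested.

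The replicate block called 26 members in the transgene line, 24 of them shared. Same-numbered libraries did not deviate together (mean r = 0.024, from -0.37 to 0.62; parental -0.064), and 1 of 5 pairs was best matched by number. The parental libraries were both fewer and shallower, and the parts of number and depth in their wider errors cannot be told apart.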
